A study of Mus musculus with 8 samples.

Results

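The genes of the tumour necrosis factor (TNF) superfamily and of the NF-kB pathway were followed in RNA sequencing of mouse kidney cortex. They were taken as every gene name of the deposited table that matched one of 5 symbol patterns (Tnfsf, Tnfrsf, Traf1 to Traf7, Tnfaip or Nfkb), together with 19 genes listed by name. The patterns gave 54 genes, so that 73 of the 21705 gene names were members. They comprised 15 ligands, 23 receptors, 11 TRAFs, death-domain adapters and cellular inhibitors of apoptosis, 4 IkB kinase (IKK) genes, 5 NF-kB subunits, 7 genes of the IkB family or its relatives and 8 genes named TNF alpha-induced protein (Tnfaip). One group held 4 libraries from mice with the genotype Sav1-/- that had received tamoxifen, called Sav1-null here, and the other held 4 libraries from Sav1+/+ mice that had received vehicle, called wild-type. Both groups were of mixed strain background. The recombinase and its promoter, the deleted exons and the ages of the animals are not stated in the labels. Nor do the labels say whether each library was a different animal, so the p-values below describe library-to-library spread, which may be technical.

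TNF superfamily ligands are mostly membrane proteins of immune and other cells, which can be shed and which act on trimeric receptors. Receptors recruit TRAF adapters, the cellular inhibitors of apoptosis and, through death domains, TRADD or FADD, and thereby feed either cell death or the IKK complex. In the canonical branch IKK marks IkB for destruction, which frees dimers such as p50 and RELA. In the alternative branch, used by receptors such as CD40, the lymphotoxin beta receptor and the TWEAK receptor, the kinase NIK and IKK alpha drive processing of the p100 precursor, so that p52 and RELB reach the nucleus. Several inhibitors of the pathway, among them IkB alpha and A20, are themselves transcribed by NF-kB, and in kidney the pathway is known from tubular injury and inflammation.

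Most of the measured members were higher in the Sav1-null cortex. Values are the normalized levels of the deposited table, scaled so that percentile 75 of a library's non-zero values is 1000 (999 in wild-type replicate 2). A gene was tested if its mean over the 8 libraries was at least 10, and it was called at a limma adjusted p under 0.05 (Benjamini-Hochberg over all 13677 genes tested). Of the 73 members, 55 were tested. Of these, 41 (74.5%) were called higher, 5 (9.09%) lower and 9 were not called. Over all genes tested, 43.9% were called higher and 25.2% lower, or 69.1% in either direction. The members' median log2 fold change was 1.33, beside 0.23 for all tested genes. Of the 55 tested members, 37 were higher without overlap between the groups, all among the 41 called higher. Over all tested genes, 5613 (41.0%) were higher without overlap, beside 6002 called higher. The groups overlapped for the called members Tnfrsf14, Traf3, Rel and Nfkbil1. At least 2-fold higher were 35 of the 41, and the share of all genes at that fold is not given here. The members called lower were the ligand Tnfsf10, the receptor Tnfrsf11a, the adapter Fadd, the kinase Chuk and Tnfaip8. All 5 were without overlap, and 3 of them differed at least 2-fold. Over all tested genes, 3298 (24.1%) were lower without overlap, beside 3452 called lower.

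**Figure D1:**
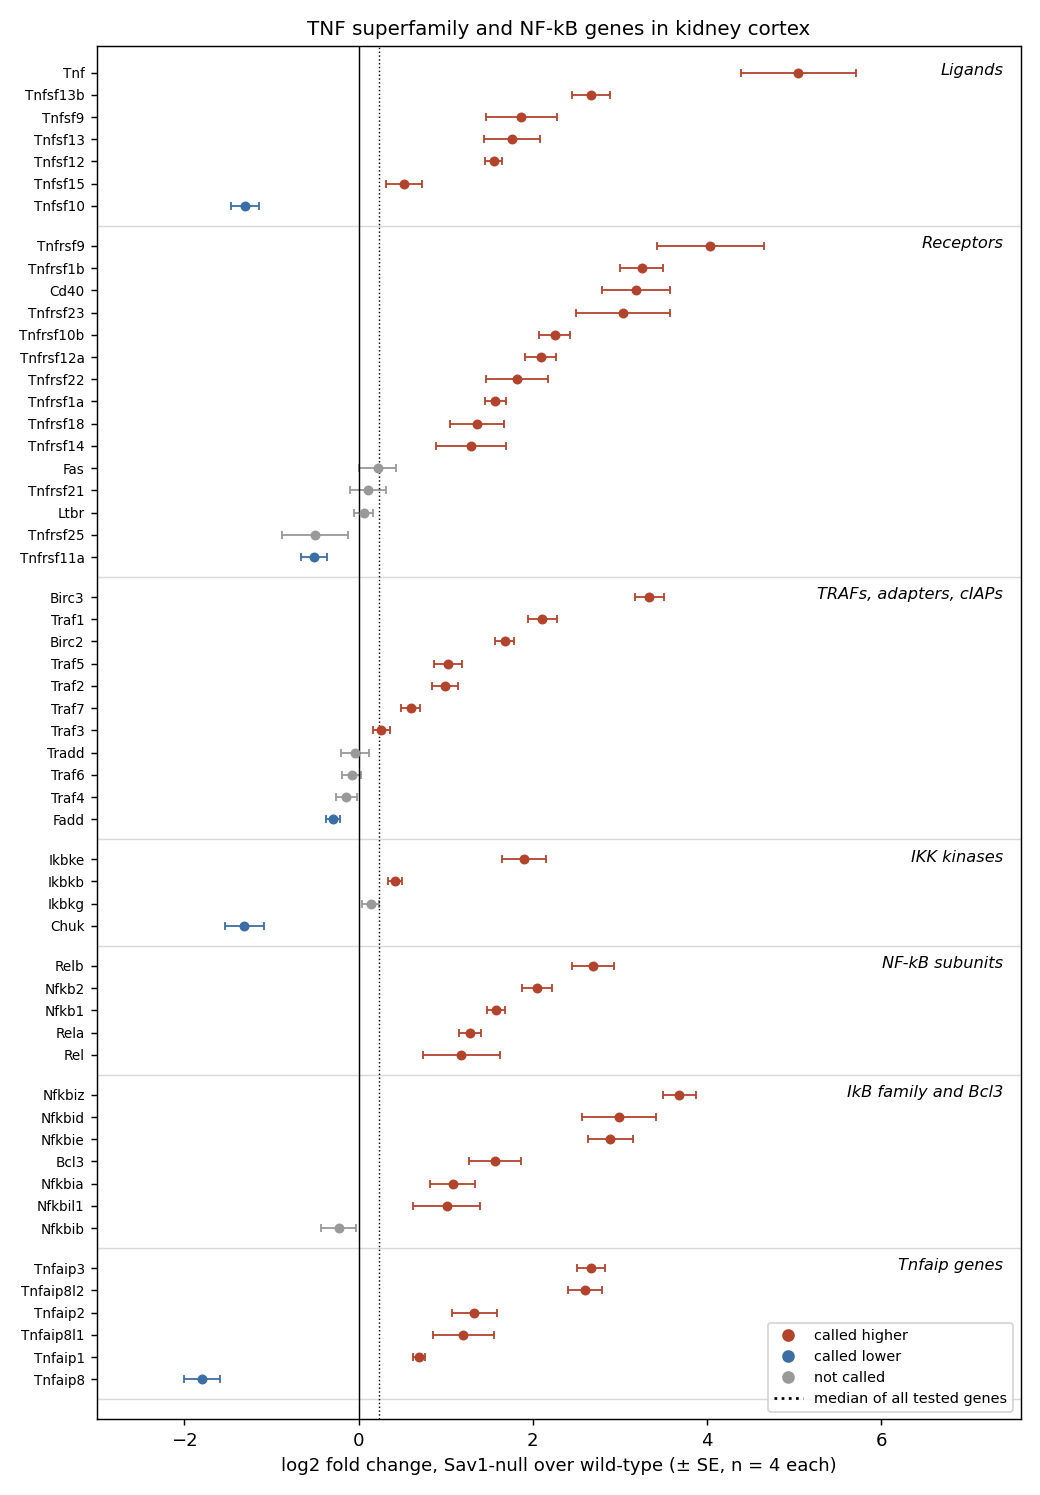
Log2 fold change, Sav1-null over wild-type, of the 55 tested members, grouped by role; points are the limma estimates, bars their SE (n = 4 libraries each), and the dotted line is the median of all tested genes (0.23). The 41 members called higher lie to the right of that median, and the 5 called lower (Tnfsf10, Tnfrsf11a, Fadd, Chuk and Tnfaip8) lie left of 0.

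The filter let 10 members pass whose wild-type mean was under 10 (Tnf, Tnfsf13b, Tnfsf9, Tnfrsf9, Tnfrsf23, Tnfrsf22, Tnfrsf18, Rel, Nfkbid and Tnfaip8l1), and these could hardly be tested without being higher. With a mean of at least 50 required, 41 members were tested, 28 were called higher and 5 lower, and their median was 1.03, where 41.8% of all tested genes were higher and 27.7% lower. That mean was also taken over all 8 libraries, so the stricter cut does not remove the problem. Cd40 (156 in Sav1-null and 18.0 in wild-type libraries) and Tnfrsf10b (164 and 33.5), for example, reached 50 only through the Sav1-null group. Scaling moved the median of all tested genes by -0.23 (median-of-ratios), -0.26 (quantile) and 0.39 (equal library totals) on the log2 scale. The share of all calls that were higher was 63.5% as deposited and 49.7%, 48.2% and 81.8% under these scalings, whereas the share among called members was 89.1% as deposited and 84.1%, 82.1% and 93.9%. The members' median minus that of all genes lay between 0.84 and 1.31 in every setting tried. Quantile normalization moved the fold change of 25 of the 55 members by more than 1.5 times, 24 of them downwards, and the values concerned stand beside the genes below.

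**Figure D2:**
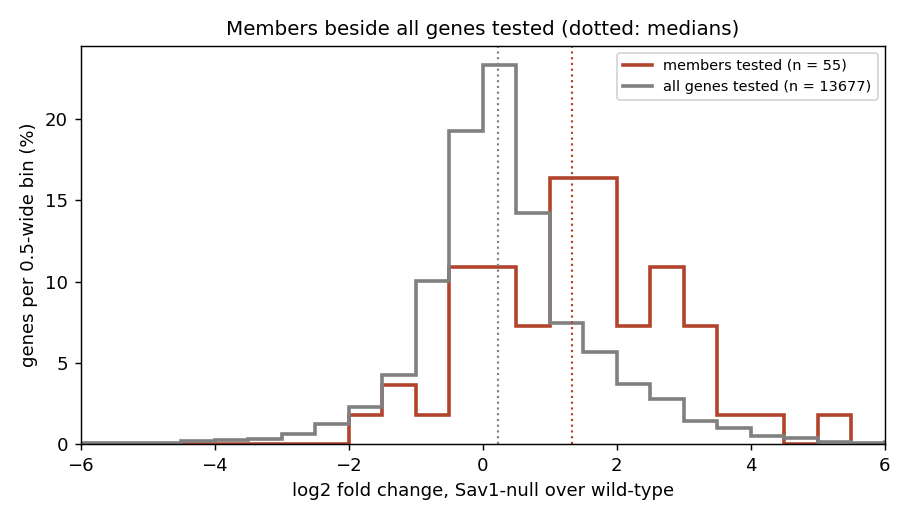
Distribution of log2 fold changes, Sav1-null over wild-type, as the percentage of genes per 0.5-wide bin, for the 55 tested members and all 13677 tested genes; dotted lines are the medians, 1.33 and 0.23. The members' outline is shifted to the right of that of all genes and also has a small lobe below -1, made by Tnfsf10, Chuk and Tnfaip8.

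The groups differed in far more than these genes. Library depth was about 15700000 to 20900000 reads in the Sav1-null and 20500000 to 25000000 in the wild-type libraries. Sav1, the scaffold of the Hippo kinases, was at 983, 914, 982 and 714 in Sav1-null and 1504, 1743, 959 and 1193 in wild-type libraries, here and below in the order of replicates 1 to 4. Its log2 fold change was -0.56 ± 0.19 (SE; limma adjusted p = 0.0220). Wild-type replicate 3 lay inside the Sav1-null range, and Sav1 was no longer called without wild-type replicate 1 (-0.50, limma adjusted p = 0.0611), without wild-type replicate 2 (-0.43, 0.0570) and with equal library totals (-0.18, 0.375), while its adjusted p ranged from 0.00298 to 0.375 over 18 alternatives. The kidney markers were present in both groups. All 8 proximal tubule markers were lower, beside 25.2% of all tested genes (summed level 32245 to 87212 in Sav1-null and 314115 to 359969.7 in wild-type libraries). All 7 markers of injured tubule were higher, beside 43.9% of all tested genes (47723 to 74211 and 2148 to 4980.1). Within the wild-type group the injury marker Havcr1 was at 1099 and 665 in replicates 2 and 3 and at 23.6 and 15.5 in replicates 1 and 4. Xist had 9280.4 or more in each Sav1-null and at most 0.989 in each wild-type library. All 4 Y-linked genes examined were at 0 in every Sav1-null library and between 326 and 1284 in the wild-type libraries. By these transcripts the Sav1-null libraries were female and the wild-type libraries male, which the labels do not state. Genotype, treatment and sex therefore cannot be told apart.

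Leukocyte transcripts moved with the members, and the marker counts here stand beside 43.9% higher and 25.2% lower over all tested genes. All 12 tested macrophage markers were higher, with a summed level of 8596 to 11838 in the Sav1-null and 1200 to 2145 in the wild-type libraries. All 4 markers shared by leukocytes were higher (2159 to 2852, against 362 to 573), as were all 7 tested T and NK cell markers (302 to 425, against 60.8 to 86.1) and 7 of 8 dendritic cell markers (611 to 942, against 103 to 155). For B and plasma cells 3 of 4 tested markers were higher and 1 lower (summed level 1794 to 2953, against 2155 to 3606). Of the neutrophil markers 2 of 4 tested were higher, Elane and Camp were at 0 in all libraries, and the sum was 40.6 to 521, against 6.19 to 26.3. Fibroblast markers were higher in 6 of 8 (2718 to 8329, against 1211 to 1962), and of the 9 endothelial markers 1 was lower and 8 were not called (1746 to 3724, against 3441 to 4328). Low genes passed the filter here too through the Sav1-null group: the wild-type mean was under 10 for 5 of the 7 T and NK cell, 4 of the 8 dendritic, all 4 neutrophil, 1 of the 4 B and plasma cell and 1 of the 8 fibroblast markers tested, but for none of the macrophage or shared leukocyte markers. Of the untested T and NK cell markers, Cd2 and Gzmb were higher in the Sav1-null libraries without overlap. Cd8b1 and Klrb1c also averaged higher there, but their groups overlapped. Only Ncr1 averaged lower, at 0.588 in Sav1-null and 2.31 in wild-type libraries. Its values rest on 3 and 10 reads, and its groups overlapped. In these pieces of tissue, fewer cells of a type and less RNA per cell cannot be told apart, and the part of any cell type in the members' values was not tested.

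Promoter sequence was examined because the inhibitors and precursors of the pathway are known NF-kB targets and most of them moved together. The window of 250 bases before each start was taken from RefSeq (GRCm38.p6), where 58 members had an entry. The NF-kB consensus, searched by its degenerate letters on both strands with overlapping matches allowed, was found in 12 of them (20.7%) and in 8.23% of the 27025 genes of the same table. It was present in 10 of 32 members called higher, 0 of 4 called lower, 1 of 8 not called and 1 of 14 below the filter. The 15 members without an entry were not searched. Those called higher were Nfkb1, Relb, Nfkbiz, Ikbkb, Cd40, Tnfrsf10b, Tnfrsf22, Tnfsf9 and Tnfsf12. The others were Tnfaip8 (lower), Tradd (not called) and Cd70, Tnfsf4, Tnfrsf11b and Tnfrsf26 (below the filter). A match is a description of letters, and binding was not measured. The windows below belong to the p100 precursor gene, to 2 IkB inhibitors and to A20, all higher in the Sav1-null libraries (values further below); they read 5′ to 3′ on the gene's strand and capitals mark the matches. They lie at chr19:46304487-46304736 on the plus strand (Nfkb2, the most upstream of its 3 listed starts), chr12:55492648-55492897 on the minus strand (Nfkbia), chr17:45555450-45555699 on the plus strand (Nfkbie) and chr10:19015411-19015660 on the minus strand (Tnfaip3).
Nfkb2: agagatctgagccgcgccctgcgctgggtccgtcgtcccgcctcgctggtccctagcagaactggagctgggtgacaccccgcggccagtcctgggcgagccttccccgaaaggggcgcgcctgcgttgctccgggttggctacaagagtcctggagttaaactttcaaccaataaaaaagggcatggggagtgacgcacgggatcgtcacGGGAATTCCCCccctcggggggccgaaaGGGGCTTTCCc
Nfkbia: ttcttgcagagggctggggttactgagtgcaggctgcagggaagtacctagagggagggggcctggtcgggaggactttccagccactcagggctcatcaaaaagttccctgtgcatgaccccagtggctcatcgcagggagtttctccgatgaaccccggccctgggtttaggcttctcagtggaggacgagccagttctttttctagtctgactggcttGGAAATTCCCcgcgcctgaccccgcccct
Nfkbie: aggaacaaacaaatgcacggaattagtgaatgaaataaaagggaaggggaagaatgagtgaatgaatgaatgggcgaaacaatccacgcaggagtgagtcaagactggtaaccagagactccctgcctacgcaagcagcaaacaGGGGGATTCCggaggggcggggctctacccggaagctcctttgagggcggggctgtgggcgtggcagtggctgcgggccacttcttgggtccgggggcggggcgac
Tnfaip3: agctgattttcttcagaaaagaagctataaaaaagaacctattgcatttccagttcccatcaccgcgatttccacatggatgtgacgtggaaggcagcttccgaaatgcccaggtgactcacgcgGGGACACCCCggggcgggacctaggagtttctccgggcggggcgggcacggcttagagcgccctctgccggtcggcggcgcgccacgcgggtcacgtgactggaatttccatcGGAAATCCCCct

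The capitals of Nfkb2 mark GGGAATTCCC and GGAATTCCCC, which overlap, 39 and 38 bases before the start, and GGGGCTTTCC 11 bases before it. Nfkbia holds GGAAATTCCC 29 bases before its start, Nfkbie GGGGGATTCC 106 bases before, and Tnfaip3 GGGACACCCC and GGAAATCCCC, 125 and 12 bases before. Among the other members called higher, Tnfrsf9 holds the overlapping GGGGATTTCC and GGGATTTCCC 43 and 42 bases before its start, and Rel holds GGGAAATCCC and GGAAATCCCC 92 and 91 bases before. At the other listed starts of Nfkb2 the windows hold GGAATGTCCC 236 bases and GGGACTTTCC 225 bases before the start. The remaining matches were in Nfkbid, Tnfaip2, Tnfaip8l1 and Traf3 (higher), Tnfrsf25 (not called) and Tnfrsf8 (below the filter).

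Of the 15 ligands 7 were tested, and 6 were higher and 1 lower (43.9% and 25.2% over all tested genes). Their median log2 fold change was 1.76. Tnf, the founding cytokine of the superfamily, was at 38.3, 72.3, 37.9 and 159 in the Sav1-null libraries, against 0, 4.19, 1.91 and 0 in wild-type. Its wild-type values rest on 7 reads over the group, and those of the Sav1-null group on 333, of which 162 were in replicate 4. The groups did not overlap, and the log2 fold change was 5.05 ± 0.66 (limma adjusted p = 0.000119), 6.02 without the wild-type libraries 2 and 3, 4.42 after quantile normalization, and 5.64 and 2.72 with pseudocounts of 0.5 and 10. It was called in all 17 alternatives. Tnfsf13b (BAFF, a survival factor of B cells) had 60.9, 78.2, 60 and 66.9 in Sav1-null and 7.25, 11.7, 9.57 and 10.3 in wild-type libraries, a log2 fold change of 2.67 ± 0.22 (limma adjusted p = 7.98e-06), or 1.57 under quantile normalization and 1.96 with a pseudocount of 10. Its replicates were close together in both groups. Its relative Tnfsf13 (APRIL), which sustains plasma cells, had 65.0, 49.7, 108 and 57.4 against 29.9, 12.2, 18.8 and 19.0 (log2 fold change 1.76 ± 0.32), and was not called under quantile normalization (0.69, limma adjusted p = 0.107, the highest of 17 alternatives, which began at 0.000184).

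Tnfsf12 encodes TWEAK, the ligand of the receptor Tnfrsf12a. It was at 598, 571, 561 and 573 in Sav1-null and at 216, 178, 220.4 and 176 in wild-type libraries, 2.92-fold higher (limma adjusted p = 2.91e-06), and no replicate stood apart. The opposite direction was seen for Tnfsf10, which encodes TRAIL, a ligand of death receptors. It had 743, 1011, 744 and 1256 in Sav1-null, against 2109, 2320.4, 2208 and 2401 in wild-type libraries, and fell by 1.30 on the log2 scale (SE 0.16, limma adjusted p = 8.70e-05). Per kilobase of transcript, Tnfsf12 was at 401 ± 10.9 and Tnfsf10 at 188 ± 49.3 in the Sav1-null libraries, against 138 ± 16.8 for Tnfsf12 and 453 ± 25.6 for Tnfsf10 in wild-type (SD, n = 4), so that the order of these ligands was reversed between the groups.

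Tnfsf15 (TL1A) had 128, 115, 107 and 98.4 in Sav1-null and 94.3, 97.2, 53.6 and 74.2 in wild-type libraries. The groups were separated by a narrow gap, and the call (log2 fold change 0.52 ± 0.21, limma adjusted p = 0.0471) was lost in 9 of 18 alternatives (limma adjusted p from 0.00264 to 0.219), among them the removal of Sav1-null replicate 1, 2 or 3 or wild-type replicate 3 or 4. Quantile normalization turned its sign (-0.28). Tnfsf9 (4-1BB ligand) was 3.66-fold higher (log2 fold change 1.87, limma adjusted p = 0.00278; 1.14 with a pseudocount of 10), but was not called under quantile normalization (0.80). Exons of Tnfsf12 and Tnfsf13 are shared with the read-through gene Tnfsfm13 on the same strand, so that their values are uncertain.

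**Figure D3:**
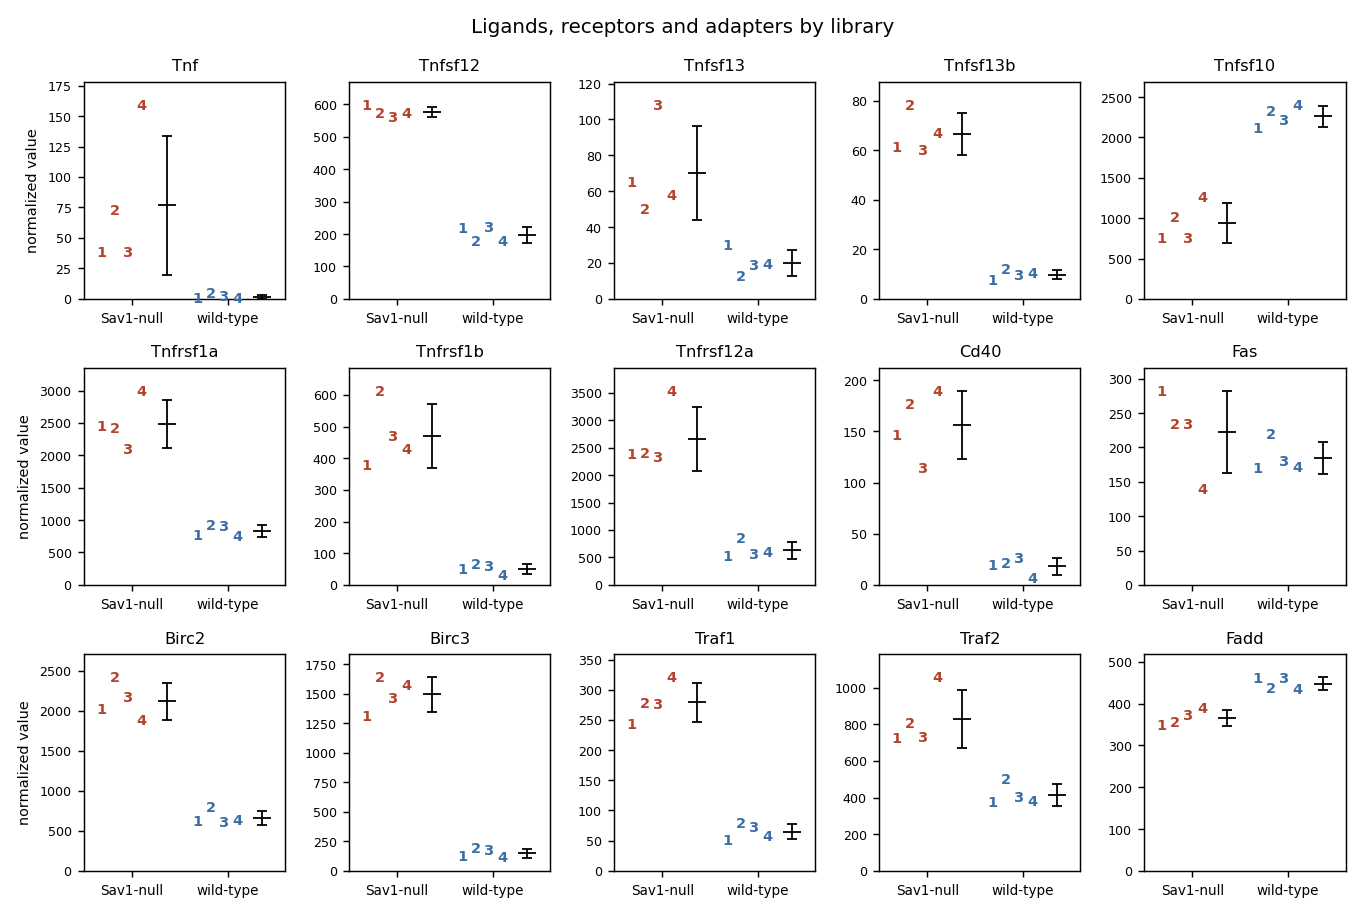
Normalized value of 5 ligands, 5 receptors and 5 adapters in each library, Sav1-null on the left of each panel and wild-type on the right; digits are replicate numbers, the dash and bar the mean ± SD (n = 4), and every axis starts at 0. Tnfsf10 and Fadd are lower in all Sav1-null libraries, the groups overlap for Fas, and Sav1-null replicate 4 is far above the others for Tnf and Tnfrsf12a.

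The remaining 8 ligands were below the filter and were not tested. Lta (lymphotoxin alpha) had 17 reads in the Sav1-null and 2 in the wild-type group, a depth-adjusted ratio of 7.99 (95% exact interval 1.90 to 71.3, counting error only). Tnfsf8 (CD30 ligand) had 34 and 2 reads, a ratio of 16.0 (4.10 to 137). Fasl, the ligand of Fas, was between 5.47 and 7.90 in Sav1-null and between 0 and 2.06 in wild-type libraries. Tnfsf18 was also separated, with 9 reads and 1 read. Tnfsf11 and Tnfsf14 overlapped between groups, and Cd70 and Tnfsf4 had 1 read each in the Sav1-null group and none in wild-type, where 3 reads in each library would be a mean of 2.80.

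Among the 23 receptors 15 were tested, of which 10 were higher, 1 was lower and 4 were not called. Their median log2 fold change was 1.57, and 43.9% of all tested genes were higher and 25.2% lower. Both TNF receptors rose. Tnfrsf1a, the broadly expressed receptor that carries a death domain, was at 2449, 2419, 2094 and 2991 in Sav1-null and 763, 922, 894 and 754 in wild-type libraries, a log2 fold change of 1.57 ± 0.12 (limma adjusted p = 5.05e-06). Tnfrsf1b, which lacks a death domain and is mainly known from leukocytes and endothelium, was at 376, 612, 467 and 428 in Sav1-null and 49.0, 64.5, 57.4 and 28.9 in wild-type libraries. It was 9.49-fold higher (log2 fold change 3.25 ± 0.25, limma adjusted p = 6.05e-06; 2.58 under quantile normalization). The lowest Sav1-null value of either receptor was more than the highest wild-type one.

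Receptors of the alternative branch did not move alike. Cd40, which activates antigen-presenting cells, was at 146, 176, 114 and 189 in Sav1-null and 19.0, 20.9, 25.8 and 6.19 in wild-type libraries, 9.04-fold higher (log2 fold change 3.18, limma adjusted p = 8.39e-05; 2.20 under quantile normalization). Tnfrsf12a (Fn14, the TWEAK receptor) was at 2377, 2399.8, 2327 and 3531 in Sav1-null, against 511, 849, 561 and 588 in wild-type, a log2 fold change of 2.09 ± 0.18 (limma adjusted p = 1.08e-05). Replicate 4 stood above the other Sav1-null libraries and replicate 2 above the other wild-type ones. The lymphotoxin beta receptor Ltbr was at 2089, 2022, 1936 and 2627 in Sav1-null and 1886, 2031, 2152 and 2232 in wild-type libraries and was not called (log2 fold change 0.06 ± 0.11, limma adjusted p = 0.656), except with equal library totals (0.44).

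Per kilobase of transcript, Tnfrsf12a (2702 ± 592) and Tnfrsf21 (2297 ± 667) had the highest receptor levels in the Sav1-null libraries and did not differ beyond their spread, followed by Tnfrsf1a (1154 ± 173) and Ltbr (1029 ± 148). In wild-type libraries Tnfrsf21 was first (2071 ± 279), then Ltbr (985 ± 71.5), Tnfrsf12a (637 ± 153) and Tnfrsf1a (386 ± 40.5). Tnfrsf21 (death receptor 6) itself was not called, at 8330.4 ± 2419 in Sav1-null and 7513 ± 1013 in wild-type libraries on the deposited scale (log2 fold change 0.11, limma adjusted p = 0.672). It was called higher without Sav1-null replicate 4, which had the lowest value of that group (0.32, limma adjusted p = 0.0430, where alternatives ranged from 0.0148 to 0.923), under quantile normalization (0.72) and with equal library totals (0.49).

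Death receptors other than Tnfrsf1a were divided. Tnfrsf10b, the mouse TRAIL receptor, was at 205, 139, 141 and 172 in Sav1-null and 29.9, 38.5, 34.4 and 30.9 in wild-type libraries, 4.76-fold higher (log2 fold change 2.25, limma adjusted p = 6.07e-06; 1.33 under quantile normalization), while its ligand Tnfsf10 was lower. Tnfrsf23, a decoy receptor for TRAIL in mouse, was at 96.8, 69.4, 49.0 and 34.4 against 10.9, 14.2, 3.83 and 2.06 (log2 fold change 3.04 ± 0.54; 2.02 under quantile normalization and 2.01 with a pseudocount of 10). Its near copy Tnfrsf22 was 3.53-fold higher (log2 fold change 1.82, or 1.10 with a pseudocount of 10) and was not called under quantile normalization (0.73, limma adjusted p = 0.0867, the highest of 17 alternatives, which began at 0.000404). Both genes are similar in sequence, and a further copy, Tnfrsf26, was below the filter, so that reads may have been divided among these genes. Fas was at 282, 233, 234 and 139 in Sav1-null and 169.6, 219, 179 and 171 in wild-type libraries. Sav1-null replicate 4 was the lowest of all 8, the difference was not called (log2 fold change 0.22 ± 0.21, limma adjusted p = 0.362), and without that library it was (0.43, limma adjusted p = 0.0141, where alternatives ranged from 0.0141 to 0.998), as with equal library totals (0.61). Tnfrsf25, known from T cells, averaged 8.93 ± 2.78 in Sav1-null and 13.7 ± 6.53 in wild-type libraries and was not called (log2 fold change -0.50, limma adjusted p = 0.262), but it was called lower under quantile normalization (-1.57, limma adjusted p = 0.00595, where alternatives ranged from 0.00595 to 0.722).

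Tnfrsf11a encodes RANK, the receptor that drives osteoclast formation, and was the only tested receptor called lower. It had 64.8, 66.5, 67.2 and 53.1 in Sav1-null, against 94.3, 96.3, 75.6 and 92.8 in wild-type libraries (log2 fold change -0.51 ± 0.15, limma adjusted p = 0.0153). The call was lost with equal library totals (-0.13), and the value was -1.35 under quantile normalization. Tnfrsf9 (4-1BB, a co-stimulatory receptor of T cells) averaged 39.7 ± 4.17 in Sav1-null and 2.59 ± 3.89 in wild-type libraries, where 10 of the 12 reads were in replicate 2, and its log2 fold change was 4.04, or 4.68 without that library, 4.83 without wild-type replicates 2 and 3, 3.25 after quantile normalization and 2.02 with a pseudocount of 10. Tnfrsf18 (GITR) was 2.56-fold and Tnfrsf14 (HVEM) 2.45-fold higher, both lost under quantile normalization (log2 fold changes 0.26 and 0.23). Of the 8 receptors below the filter, Tnfrsf4 (OX40) had 56 reads in the Sav1-null and 2 in the wild-type group, a ratio of 26.3 (95% exact interval 6.96 to 223). The B-cell receptors Tnfrsf13b, Tnfrsf13c and Tnfrsf17, which bind BAFF or APRIL, had at most 10 reads in a library and overlapped between groups, as did Tnfrsf11b, Tnfrsf19 and Tnfrsf26, and Tnfrsf8 was at 0 throughout.

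The adapters and inhibitors of apoptosis were all tested, and 7 of 11 were higher, 1 was lower and 3 were not called. Shares over all tested genes were 43.9% higher and 25.2% lower, and the median log2 fold change of these 11 was 0.60. Birc3 (cIAP2), a ubiquitin ligase that is also an NF-kB target, was at 1305, 1640.3, 1458 and 1569 in Sav1-null and 125, 188, 173 and 112 in wild-type libraries, 10.1-fold higher (log2 fold change 3.34 ± 0.17, limma adjusted p = 8.50e-07). Its relative Birc2 (cIAP1) lay between 1879.9 (replicate 4) and 2422 (replicate 2) in Sav1-null libraries and was at 619, 794, 609 and 629.9 in wild-type, 3.20-fold higher (limma adjusted p = 2.70e-06). Wild-type replicate 2 was the highest of its group for both genes, and the groups did not overlap.

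Traf1, a TRAF without a RING domain that NF-kB induces in leukocytes, was at 243, 278, 275 and 321 in Sav1-null and 50.8, 77.9, 71.8 and 57.7 in wild-type libraries (log2 fold change 2.11 ± 0.17, limma adjusted p = 6.18e-06; 1.40 under quantile normalization). Traf2, which brings the cellular inhibitors of apoptosis to the receptors, was at 721, 804, 728 and 1057 against 373, 501, 402 and 380.4 (0.99 ± 0.15). Traf5 was at 221, 261, 189.6 and 268 against 130.1, 127, 109 and 91.7 (1.03 ± 0.16; 0.41 under quantile normalization). These differences were smaller than that of Traf1, but the groups did not overlap in any of them. Traf7 was at 1504, 1492, 1338 and 1975 against 1036, 1057, 1000 and 1023 (0.60 ± 0.11), and shares exon bases with Rab26 on the same strand.

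Traf3, which keeps NIK low, averaged 681 ± 69.3 in Sav1-null and 566 ± 37.2 in wild-type libraries. Its call (log2 fold change 0.26 ± 0.10, limma adjusted p = 0.0332) was lost in 9 of 18 alternatives (limma adjusted p from 0.000347 to 0.733), among them the removal of Sav1-null replicate 1, 2 or 4 or wild-type replicate 1, 3 or 4. The death-domain adapter Fadd was lower, at 347, 355, 371 and 388 in Sav1-null and 461, 436, 461 and 433 in wild-type libraries. The fall was small (log2 fold change -0.29 ± 0.08, limma adjusted p = 0.00838) and turned to 0.09 with equal library totals. Fadd shares exon bases with its antisense gene Faddos, and the labels do not say whether counting used strand. Tradd averaged 207 ± 39.7 and 211 ± 25.7, Traf6 626 ± 66.7 and 662 ± 70.4, and Traf4 1473 ± 272 and 1604 ± 79.7 in Sav1-null and wild-type libraries, and none was called. Scaling changed this: Traf6 was called lower with median-of-ratios (-0.31) and higher with equal library totals (0.30), Traf4 lower with median-of-ratios (-0.36) and Tradd lower with quantile scaling (-0.56). Without Sav1-null replicate 4, which was the highest of all 8, Traf4 was called lower (-0.26, limma adjusted p = 0.00443, where alternatives ranged from 0.00443 to 0.641).

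The genes of the IKK complex moved in different directions. Chuk, which encodes IKK alpha, the kinase of the alternative branch, was at 2955, 2397, 3073 and 1403 in Sav1-null and 6309, 6228, 5467 and 5332 in wild-type libraries. It fell by 1.31 on the log2 scale (SE 0.22, limma adjusted p = 0.000619), with no overlap and with Sav1-null replicate 4 lowest. Ikbkb (IKK beta, the kinase of the canonical branch) was at 1706, 1798, 1928 and 1719 against 1401, 1478, 1268 and 1223, 1.33-fold higher (limma adjusted p = 0.00153). The regulatory subunit Ikbkg (NEMO) was at 1035, 978, 1048 and 921 against 961, 1028, 879 and 763. The groups overlapped, and it was not called (log2 fold change 0.14 ± 0.10, limma adjusted p = 0.244) except with equal library totals (0.52). The related kinase Ikbke, which acts with TBK1 in interferon induction, was at 210, 271, 234 and 469 against 85.2, 84.6, 71.8 and 59.8 (1.90 ± 0.25, limma adjusted p = 0.000117; 1.23 under quantile normalization), with Sav1-null replicate 4 far above the rest. Per kilobase, Chuk was at 702 ± 218 in Sav1-null and 1666 ± 144 in wild-type libraries and Ikbkb at 449.5 ± 25.6 and 338 ± 29.6.

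All 5 NF-kB subunit genes were called higher (median log2 fold change 1.58), as were 43.9% of all tested genes. Relb, the partner of p52 in the alternative branch, was at 622, 795, 608 and 1182 in Sav1-null and 89.8, 166, 113 and 119 in wild-type libraries, 6.45-fold higher (log2 fold change 2.69 ± 0.24, limma adjusted p = 1.32e-05). Nfkb2, the precursor of p52, was at 1411, 1384, 1185 and 2032 against 290.0, 409.7, 376 and 358, 4.13-fold higher (limma adjusted p = 7.93e-06). For both genes Sav1-null replicate 4 was highest, and the groups stayed far apart.

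Nfkb1, the precursor of p50, was at 1533, 1663, 1331 and 1721 in Sav1-null and 515, 594, 486 and 485 in wild-type libraries (log2 fold change 1.58 ± 0.10, limma adjusted p = 2.64e-06). Rela, the main activating subunit of the canonical branch, was at 1489, 1577, 1464 and 2218 against 648, 709, 693 and 692 (1.28 ± 0.13, limma adjusted p = 2.46e-05). The wild-type values of Rela hardly varied, and Sav1-null replicate 4 was above the other 3. Rel, which encodes the c-Rel subunit of lymphoid and myeloid cells, was at 17.2, 26.4, 17.4 and 8.86 against 8.16, 8.38, 2.87 and 9.28. Sav1-null replicate 4 lay within the wild-type range, and the call (1.18 ± 0.44, limma adjusted p = 0.0354; 0.12 under quantile normalization) was lost in 8 of 17 alternatives (limma adjusted p from 0.00811 to 0.824), among them the removal of Sav1-null replicate 1, 2 or 3 or wild-type replicate 3. Per kilobase, the Sav1-null levels were 621 ± 131 for Rela, 391 ± 95.4 for Nfkb2, 379 ± 42.0 for Nfkb1, 363 ± 121 for Relb and 2.34 ± 0.959 for Rel, so that Nfkb2, Nfkb1 and Relb did not differ beyond their spread. In wild-type libraries the levels were 252 ± 9.53 for Rela, 126 ± 12.5 for Nfkb1, 93.2 ± 13.1 for Nfkb2, 55.1 ± 14.4 for Relb and 0.961 ± 0.389 for Rel. Nfkb2 shares exon bases with Psd on the opposite strand.

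**Figure D4:**
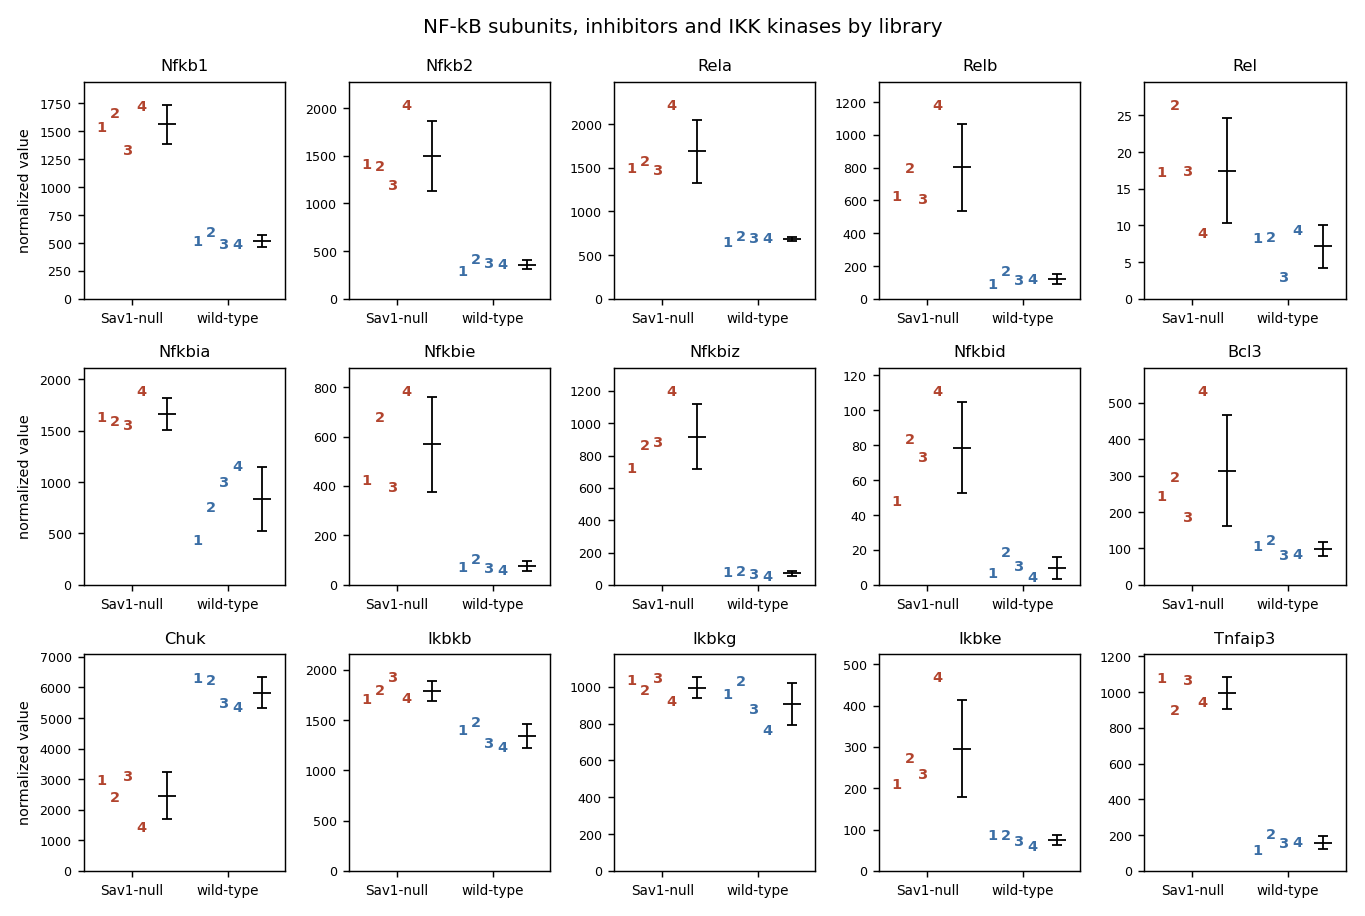
Normalized value of the 5 NF-kB subunits, Nfkbia, Nfkbie, Nfkbiz, Nfkbid, Bcl3, the 4 IKK genes and Tnfaip3 in each library, Sav1-null on the left of each panel and wild-type on the right; digits are replicate numbers, the dash and bar the mean ± SD (n = 4), and every axis starts at 0. Of the 15 genes shown only Chuk is lower in all Sav1-null libraries, and Rel and Ikbkg overlap between the groups; Nfkbib and Nfkbil1, which also overlap, are not shown.

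Of the IkB family and its relatives 6 of 7 were higher, beside 43.9% of all tested genes, and 1 was not called. Their median log2 fold change was 1.57. The classical inhibitors differed among themselves. Nfkbia (IkB alpha) was at 1626, 1587, 1551 and 1885 in Sav1-null and 436, 756, 995 and 1155 in wild-type libraries, 2.11-fold higher (limma adjusted p = 0.00467). Its wild-type values were widely spread but stayed below every Sav1-null value. Nfkbie (IkB epsilon) was at 422, 676, 392 and 784 against 68.9, 104, 67.0 and 57.7, 7.41-fold higher (limma adjusted p = 1.31e-05). Nfkbib (IkB beta) averaged 403 ± 72.4 in Sav1-null and 479 ± 128 in wild-type libraries, overlapped and was not called in the deposited scaling or in any of 18 alternatives (limma adjusted p = 0.330, alternatives from 0.0556 to 0.694).

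The atypical nuclear members were higher. Nfkbiz (IkB zeta), a co-activator of secondary NF-kB targets, was at 721, 862, 883 and 1199 in Sav1-null and 77.1, 85.4, 65.1 and 54.6 in wild-type libraries, 12.8-fold higher (log2 fold change 3.68 ± 0.19, limma adjusted p = 8.36e-07). Nfkbid (IkB NS) was at 47.6, 83.1, 72.7 and 111 against 6.35, 18.4, 10.5 and 4.12 (2.99 ± 0.43, or 3.64 without wild-type replicates 2 and 3, 2.16 with a pseudocount of 10 and 1.93 under quantile normalization). Bcl3, which binds p50 and p52 dimers, was at 242, 295, 185 and 532 against 105, 123, 79.4 and 84.5 (1.57 ± 0.30, limma adjusted p = 0.00121; 0.95 under quantile normalization), with Sav1-null replicate 4 far above the others. Nfkbil1, a relative in sequence, averaged 248 ± 117 in Sav1-null and 124 ± 56.5 in wild-type libraries. Its call (log2 fold change 1.01, limma adjusted p = 0.0365; 0.39 under quantile normalization) was lost in 7 of 18 alternatives (0.00764 to 0.394), among them the removal of Sav1-null replicate 2 or 4 or wild-type replicate 1 or 2, and it shares exon bases with Atp6v1g2 on the opposite strand.

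The 8 Tnfaip genes are named for induction by TNF or for likeness to Tnfaip8, and come from several families. Of these genes 6 were tested, and 5 were higher and 1 was lower (43.9% and 25.2% over all tested genes). Their median log2 fold change was 1.26. Tnfaip3 encodes A20, the ubiquitin-editing enzyme that ends NF-kB signalling. It was at 1074, 895, 1066 and 943 in Sav1-null and 114, 203, 154 and 161 in wild-type libraries, 6.37-fold higher (log2 fold change 2.67 ± 0.16, limma adjusted p = 1.80e-06). Tnfaip2 was at 1097, 1532, 1150.3 and 2736 against 723, 626, 521 and 561 (1.33 ± 0.26), with Sav1-null replicate 4 highest. Tnfaip1 was at 2459, 2351, 2508 and 2733 against 1578, 1677, 1494 and 1484 (0.69 ± 0.07, limma adjusted p = 3.69e-05).

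The Tnfaip8 family was split. Tnfaip8 had 2804, 2699.9, 2897 and 1511 in Sav1-null and 9707, 7023, 9110.5 and 7955 in wild-type libraries and fell by 1.80 on the log2 scale (SE 0.21, limma adjusted p = 5.24e-05). Its relative Tnfaip8l2 (TIPE2), an immune regulator of lymphoid and myeloid cells, was at 71.1, 98.7, 72.7 and 76.8 against 13.6, 12.6, 10.5 and 12.4 (log2 fold change 2.60 ± 0.20; 2.0 with a pseudocount of 10 and 1.52 under quantile normalization). Tnfaip8l1 was 2.29-fold higher (limma adjusted p = 0.0129) but was not called under quantile normalization (log2 fold change 0.11). Tnfaip8l3, below the filter, was between 10.9 and 12.8 in Sav1-null and between 0 and 3.83 in wild-type libraries. Tnfaip6, a hyaluronan-binding protein, had 11 reads in the Sav1-null and none in the wild-type group.

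In each group a single library was often the highest, among the members and among all genes called higher. Sav1-null replicate 4 was the highest of its group for 23 of the 41 members called higher (56.1%, beside 49.4% of all 6002 genes called higher), and wild-type replicate 2 was the highest of its group for 27 (65.9%, beside 40.3%). Without ligands and receptors these were 18 (72.0%) and 17 (68.0%) of 25 genes, so the share of Sav1-null replicate 4 was lower among ligands and receptors. Genes of a library are not independent, and these shares were not tested. Sav1-null replicate 4 also had the highest values of the neutrophil markers S100a8 (1.56, 6.84, 26.1 and 104 in Sav1-null libraries) and S100a9 (7.03, 12.7, 26.9 and 199). The markers shared by leukocytes were divided in that library. Ptprc (549, 673, 519 and 321) and Cd53 (259, 302, 252 and 138) were lowest there. Coro1a was highest there (397, 516, 377 and 528), and Laptm5 lay in between (1026, 1362, 1011 and 1241). Without Sav1-null replicate 4, 41 members were higher and 6 lower, with a median of 1.45, and without wild-type replicate 2, 40 were higher and 5 lower, with a median of 1.37.

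Other genes of the pathway were counted from lists of textbook members. Of 9 further superfamily genes without the pattern names, 7 were tested and all were called higher (median log2 fold change 1.74), where 43.9% of all tested genes were. Of these, 3 (Ltb, Edar and Relt) had a wild-type mean under 10 and passed the filter only through the Sav1-null group, and just 2 were left with a mean of at least 50, both higher. Ltb (102 in Sav1-null and 5.66 in wild-type libraries) was still among them, again only through the Sav1-null group. Eda2r, a receptor of ectodysplasin A2, was at 239.7, 125, 134 and 91.5 in Sav1-null and 20, 29.3, 20.1 and 18.6 in wild-type libraries (6.17-fold, limma adjusted p = 4.46e-05). Its ligand gene Eda was 3.33-fold, the orphan receptor Relt 6.03-fold and Ltb (lymphotoxin beta, a ligand of Ltbr) 12.6-fold higher. Only 4 of the list were called without Sav1-null replicate 2, and likewise 4 under median-of-ratios or quantile scaling.

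The general signalling machinery was counted separately. Of 31 tested genes from receptor-proximal and IKK-activating steps, 13 were higher (41.9%), 2 were lower and 16 were not called, with a median log2 fold change of 0.16. The share called higher and the median lay near those of all tested genes (43.9% and 0.23), and fewer were lower (6.45%, beside 25.2%). The higher ones included Ripk3, the kinase of necroptosis (106 ± 45.4 in Sav1-null and 8.07 ± 1.45 in wild-type libraries, 11.2-fold), Map3k8, a kinase bound to p105 (98.2 ± 19.2 and 13.8 ± 3.71, 6.75-fold), and Map3k14, which encodes NIK (514 ± 94.6 and 213 ± 17.7, 2.39-fold, limma adjusted p = 4.14e-05). Irak4, a kinase of Toll-like receptor signalling, was 2.03-fold higher, while Irak1 was 1.30-fold and Btrc, which brings IkB to its ubiquitin ligase, 1.26-fold lower. With equal library totals 24 of the 31 were called higher. The count of lower genes was 8 with median-of-ratios scaling, 0 with equal library totals and 4 without Sav1-null replicate 4. Ripk1, Map3k7, Tbk1 and Casp8 were among those not called, chosen after their values were seen (log2 fold changes 0.12, 0.08, -0.17 and 0.17).

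Of 36 textbook NF-kB target genes 30 were tested, and 26 were higher (86.7%), 3 were lower and Cd83 was not called (median log2 fold change 2.64), beside 43.9% higher and 25.2% lower of all tested genes. The filter was passed only through the Sav1-null group by 6 of them (Cxcl2, Cxcl5, Ccl20, Bcl2a1a, Nos2 and Mmp9, with wild-type means under 10). With a mean of at least 50, 26 targets were tested, 22 were higher and 3 lower, beside 41.8% and 27.7% of all tested genes. This mean too was over all 8 libraries, so the stricter cut has the same limit. Cxcl2 (161 in Sav1-null and 2.77 in wild-type libraries), Cxcl5 (353 and 0.449) and Ccl20 (307 and 1.51) still passed it through the Sav1-null group. Myc, a growth regulator, was 12.4-fold higher (729 ± 151 in Sav1-null and 59.1 ± 18.6 in wild-type libraries), and Csf1, the growth factor of macrophages, 14.8-fold (1454 ± 469.9 and 98.4 ± 35.7). Icam1, an adhesion molecule for leukocytes, was 5.25-fold higher (2781 ± 488 and 532 ± 123) and Cd74, the invariant chain of antigen presentation, 8.27-fold (27909 ± 4799.6 and 3441 ± 881). The lower targets were Slc11a2, a metal transporter (1080.2 ± 70.0 and 2818 ± 193), Sod2, the mitochondrial superoxide dismutase (2885 ± 596 and 7882 ± 284), and the cyclin gene Ccnd1 (6214 ± 809 and 10872 ± 1323). Each of these 7 genes had limma adjusted p of 0.000333 or less. Several of the targets are also expressed or induced by other routes, and activity of NF-kB was not measured.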

How the data were processed

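Poly(A)-selected, stranded RNA-seq libraries of kidney cortex had been prepared per the labels' protocols, and the submitters' processing notes name Picard 1.64, SAMtools, RSEM and mouse build mm9; aligner and strand use in counting are not stated there. The deposited values are a signal scaled to the upper quartile of each library, not counts. From 92.7% to 93.3% of values below 400 were whole numbers of reads to within 0.02, too few to use as counts; 3 reads corresponded to 2.34 to 3.09 in the deposited unit. Genes with a mean of at least 10 were compared as log2(value + 1) with limma 3.58.1 in R 4.3.3 (intensity trend, 6 residual degrees of freedom, two-sided), with Benjamini-Hochberg adjustment over all 13677 genes. Fold changes are antilogs on that scale, which understates changes of low genes. The procedure was checked on simulated data in which few genes changed, equally up and down, with the spread of the wild-type libraries. These data differ, as 69.1% of tested genes were called, and scaling was not part of the check. For members with 1 to 3 reads in the wild-type group and on average more than 3 per library in the Sav1-null group (Lta, Tnfsf8 and Tnfrsf4), ratios of reads have exact 95% intervals, counting error only.

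Levels per kilobase use the longest protein-coding transcript in GENCODE M21 and compare genes only approximately. No coordinates were taken from mm9. RSEM divides ambiguous reads by estimate, and 17 members share exon bases with another gene, 16 of them with one on the opposite strand and 3 on the same strand.

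Groups came from the labels. Values per library are given for the core genes, for up to 4 called members per role with the highest and up to 3 with the lowest fold change among those with no overlap and a higher mean of at least 50, and for members not called their means; other lists give up to 4 genes by smallest p in each direction. Members, lists and rules were chosen with earlier results of these data known. Alternatives were other pseudocounts, filters and scalings, no trend, a replicate block, the removal of each library and, added after seeing the data, of the 2 wild-type libraries with higher Havcr1. Tnfrsf9 and other members outside the rule were named after their values were seen.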

Additional observations from a re-analysis of the deposited data

Results flagged for a closer look

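In 8 of the 110 group and gene combinations examined (55 tested members in each group), 1 library stood apart from the other 3 by Dixon's criterion for 4 samples, where chance alone gives about 1 in 20. Of these, 6 were Sav1-null replicate 4 and 2 wild-type replicate 2. Sav1-null replicate 4 was high for Tnfrsf12a (3531, others 2327 to 2399.8), Rela (2218, others 1464 to 1577), Nfkbil1 (422, others 171 to 205) and Traf4 (1877, others 1298 to 1389.8). It was low for Tnfaip8 (1511, others 2699.9 to 2897) and Tnfrsf11a (53.1, others 64.8 to 67.2). Wild-type replicate 2 was high for Birc2 (794, others 609 to 629.9) and Tnfrsf9 (8.38, others 0 to 1.03).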

How the results depend on the processing

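Of 974 recomputed values for single members, 918 stayed on the same side of the threshold, 41 lost a call and 12 gained one. The remaining 3 turned sign with a call before or after (Fadd to 0.09 and Traf6 to 0.30 with equal library totals, Tnfsf15 to -0.28 under quantile normalization). Sign changes without a call in either fit were counted among the 918, as for Fas (0.22 as deposited and -0.30 in its lowest alternative). In every setting tried, 34 of the 46 called members kept their call and direction. The members' median log2 fold change (1.33) was 1.10 with a pseudocount of 10, 1.03 with a mean of at least 50, 1.11 with median-of-ratios and 0.81 with quantile scaling, 1.71 with equal library totals, and 1.30 to 1.53 when each library was left out in turn. Members called lower numbered 3 and all genes called lower 1946 with equal library totals (3452 as deposited). The further superfamily genes called higher (7) numbered 2 with a mean of at least 50, where fewer genes were tested, 4 with median-of-ratios and quantile scaling, and 4 to 6 when each library was left out. The other pathway genes called lower (2) numbered 8 with median-of-ratios, 4 with quantile scaling, 0 with equal library totals, 1 without both wild-type libraries of higher Havcr1 and up to 4 when 1 library was left out, and those called higher (13) numbered 24 with equal library totals; the cause was not tested. Same-numbered libraries did not deviate together (r = 0.144, 0.0762, -0.169 and 0.135), and a replicate block gave 40 members higher and 5 lower, with Rel no longer called (limma adjusted p = 0.0521).

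Depth limits the 18 untested members, none above 20 reads per library, and Tnf, Rel and Tnfrsf9, whose wild-type values rest on a few reads. Removing a library also leaves fewer libraries for the test.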
